A study of Mus musculus with 24 samples.

Results

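The miRNAs described here are 6 probes of a mouse panel that read miRNAs reported in liver as raised in fibrosis or cancer: mmu-miR-21, mmu-miR-221, mmu-miR-222, mmu-miR-214, mmu-miR-199a-5p and mmu-miR-199a-3p. The rule that picks them uses their names and no measured value, although earlier results of these data were known when it was set, and they are 6 of the 566 mouse miRNA probes in the table. In the liver, scarring is laid down mainly by activated stellate cells, and miRNAs of that response can leave cells in exosomes, the small vesicles shed into blood. miR-21 is abundant in many cell types and lowers the growth restraint Pdcd4. miR-221 and miR-222 act on the cell cycle inhibitor Cdkn1b. miR-214 and miR-199a are made by mesenchymal cells, stellate cells among them, and miR-199a-3p, although grouped here with fibrosis, has been reported as lower in human liver tumours than in normal liver.

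The mature sequences below show which of the 6 could act on the same targets. Capitals mark the seed, bases 2 to 8, which pairs with target messages. Sequences and positions are those of RefSeq on the mouse build GRCm38.p6, and all 6 names matched. The table gives no arm for miR-21, miR-221, miR-222 and miR-214, so the RefSeq arm known as the abundant guide was taken for these (5p for miR-21, 3p for the others).

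miR-21a-5p: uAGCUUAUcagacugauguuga

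miR-221-3p: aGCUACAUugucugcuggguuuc

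miR-222-3p: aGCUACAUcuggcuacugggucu

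miR-214-3p: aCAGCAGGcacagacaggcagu

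miR-199a-5p: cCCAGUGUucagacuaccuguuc

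miR-199a-3p: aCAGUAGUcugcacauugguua

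Of the 6, only miR-221 and miR-222 shared a seed, GCUACAU, and their letters were equal at 11 of 23 positions counted from the 5′ end. miR-221-3p lies at chrX:19146307-19146329 and miR-222-3p at chrX:19146901-19146923, both on the minus strand, with 504 bases between their hairpins. miR-214-3p lies at chr1:162223438-162223459 on the plus strand, with 5444 bases between its hairpin and that of Mir199a-2, and both hairpins lie within the long noncoding RNA Dnm3os and within the span of Dnm3. miR-199a is encoded in 2 places. From Mir199a-2 the arms lie at chr1:162217844-162217866 (5p) and chr1:162217883-162217904 (3p) on the plus strand. From Mir199a-1, within the span of Dnm2, they lie at chr9:21496537-21496559 (5p) and chr9:21496498-21496519 (3p) on the minus strand. The mature miR-199a-3p has the same letters as miR-199b-3p, so its probe cannot tell them apart. miR-21a-5p lies at chr11:86584120-86584141 on the minus strand, within the span of Vmp1.

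The values are digital counts from the NanoString nCounter Mouse v1 panel, which counts barcoded probes without amplification, in RNA from serum exosomes of male C57BL/6N mice aged 40 weeks. Of the 4 groups of 6 samples, ND+oil had normal chow, tap water and corn oil injections (labelled normal), and WD+oil had a high-fat diet, water holding glucose (18.9 g/L) and fructose (23.1 g/L), and corn oil (labelled NASH, fatty liver with inflammation). ND+CCl4 had normal chow and carbon tetrachloride, a liver toxin (labelled cirrhosis), and WD+CCl4 had the diet and the toxin (labelled HCC, liver cancer). Oil and toxin were injected into the abdomen at 1 injection per week, so mice of all 4 groups carried the injections. The labels do not say that the samples are from separate animals, so the p-values cover only the spread among samples, which may be technical, and no vesicle protein was read that would check the exosome label.

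Total miRNA counts ran from 42478 to 1496818 per library. Replicates 1 to 3 of both oil groups were the shallow libraries (42478 to 75896), against 178252 to 265265 in replicates 4 to 6 of these groups. Among the CCl4 libraries, only ND+CCl4 replicate 3 was as shallow, at 46576. The 2 libraries numbered 1 in the CCl4 groups (with normal chow and with the diet) lay far from the other 22 on a principal component of 44.2% of the variance, so results that rest on them are given with and without them. Replicates 1 to 3 and 4 to 6 are named only by number in the labels, which call neither a batch.

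Detection over the negative control probes divided the 6 miRNAs. A probe was counted as detected in a library when its count was over a limit set by the 8 negative controls there, their mean plus 2 SD; the limit was 31.0 to 71.2 counts. miR-21 was above it in 24 of 24 libraries and miR-199a-3p in 23 of 24. miR-221 was above it in 18 libraries, miR-222 in 17, miR-199a-5p in 10, and miR-214 in 0.

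The margins differed as widely. The count of miR-21 was 29.5 to 7411 times the mean negative control of its library (median 240.1). For miR-199a-3p this ratio was 2.69 to 81.2 (median 14.7), and its single miss, WD+oil replicate 3, had 37 counts against a limit of 37.0. The median ratio was 4.88 for miR-221, 4.54 for miR-222 and 1.80 for miR-199a-5p.

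Detection of miR-221 and miR-222 moved with depth. All 6 libraries that missed miR-221 and all 7 that missed miR-222 had total counts of 42478 to 75896, and every library of replicates 4 to 6 detected both. By group, miR-221 was detected in 3 of 6 ND+oil, 4 of 6 WD+oil, 5 of 6 ND+CCl4 and 6 of 6 WD+CCl4 libraries, and miR-222 in 3, 3, 5 and 6 of 6. miR-199a-5p was detected in 0 of 6 ND+oil, 1 of 6 WD+oil, 3 of 6 ND+CCl4 and 6 of 6 WD+CCl4 libraries. The oil groups were the shallower ones, with a median total count of 118704.5 in ND+oil and 158795 in WD+oil, against 433323.5 for ND+CCl4 and 326836.5 for WD+CCl4. The 14 libraries that missed miR-199a-5p had totals of 42478 to 265265, and the 10 that detected it had 139911 to 1496818. WD+CCl4 replicates 2 and 3 detected miR-199a-5p at totals of 139911 and 146375, with 32 counts over a limit of 31.9 and 52 over 43.9. At the mean plus 3 SD, limits of 41.2 and 56.9, both would be missed. At totals of 178252 to 265265, 7 libraries missed it (ND+oil replicates 4 to 6, WD+oil replicates 5 and 6, and ND+CCl4 replicates 2 and 6). Among them, ND+CCl4 replicate 6 had 64 counts against a limit of 68.8. Within replicates 4 to 6 it was detected in 0 of 3 ND+oil, 1 of 3 WD+oil, 2 of 3 ND+CCl4 and 3 of 3 WD+CCl4 libraries, at totals of 178252 to 204535, 241694 to 265265, 219140 to 1115412 and 326439 to 444733. The difference in these detection counts and the part of depth in it were not tested.

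**Figure D1:**
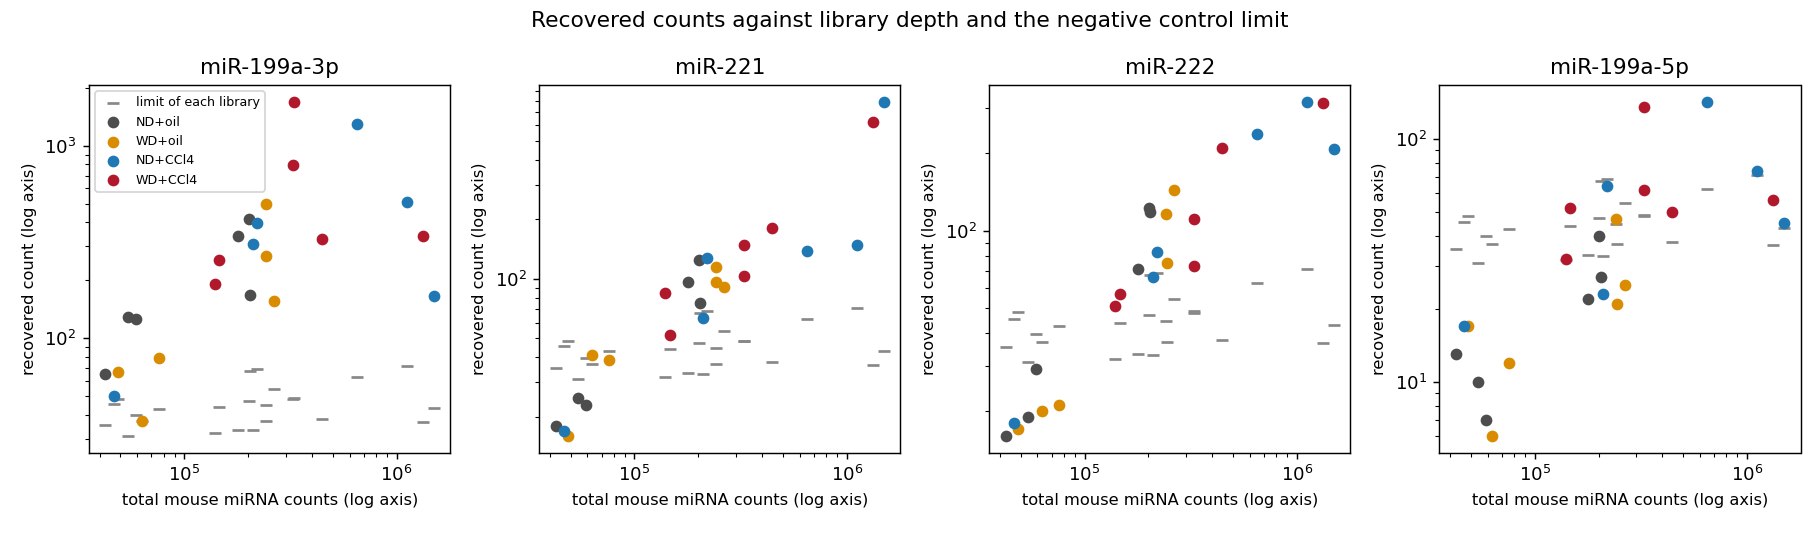
Recovered count of 4 miRNAs (log axis) against the total mouse miRNA count of the library (log axis); each point is 1 of 24 libraries, coloured by group, and each grey dash is the negative control limit of that library. miR-221 and miR-222 cross the limit as depth grows, and miR-199a-5p lies below it in every library with a total of 75896 or less.

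miR-21, the miRNA of the 6 with counts far above background, had group medians of 4962 to 5865 and no difference that passed the test, and 2 libraries far above the rest. Its deposited value, a count multiplied by 1 factor per library, was 3532 at the lowest, 4962 at the median and 6406 at the highest of the 6 ND+oil libraries. In WD+oil these values were 4302, 5475 and 8541. In ND+CCl4 they were 2900, 5865 and 43776, and in WD+CCl4 3974, 5564 and 47389. The groups overlapped, and the top of each CCl4 group was replicate 1, the library that stands apart.

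In replicate 1 of ND+CCl4 miR-21 was 8.21 times the geometric mean of the other 5 libraries of its group, and in replicate 1 of WD+CCl4 9.31 times. By the same measure miR-122, the main miRNA of hepatocytes, was at 25.3 times and 10.9 times in these libraries, and miR-192, another hepatocyte-enriched miRNA, at 20.5 times and 25.3 times. Over the 5 hepatocyte-enriched miRNAs kept the summed value was 132420 in the ND+CCl4 library and 109992 in the WD+CCl4 library against 1228 to 23057 in the other 22. On the same deposited scaling, platelet-abundant miRNAs summed to 4293 and 4327 against 12009 to 39789. Red cell miRNAs summed to 42141 and 29551 in the same order, against 42224 to 440637. The part of these cell sources in the miR-21 values was not tested. In RNA pooled over all vesicles of a serum sample, more vesicles of a kind and more of a miRNA per vesicle cannot be told apart.

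Against ND+oil, miR-21 was 1.13-fold in WD+oil (95% CI 0.522 to 2.43), 1.55-fold in ND+CCl4 (0.718 to 3.34) and 1.51-fold in WD+CCl4 (0.700 to 3.26), on the log2(value + 1) scale. Without the 2 libraries the folds were 1.13 (0.787 to 1.61), 1.09 (0.749 to 1.59) and 1.04 (0.715 to 1.51). None passed the test in either fit. The difference of WD+CCl4 from ND+oil was 1.39 on the log2 scale within replicates 1 to 3 and -0.20 within replicates 4 to 6.

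**Figure D2:**
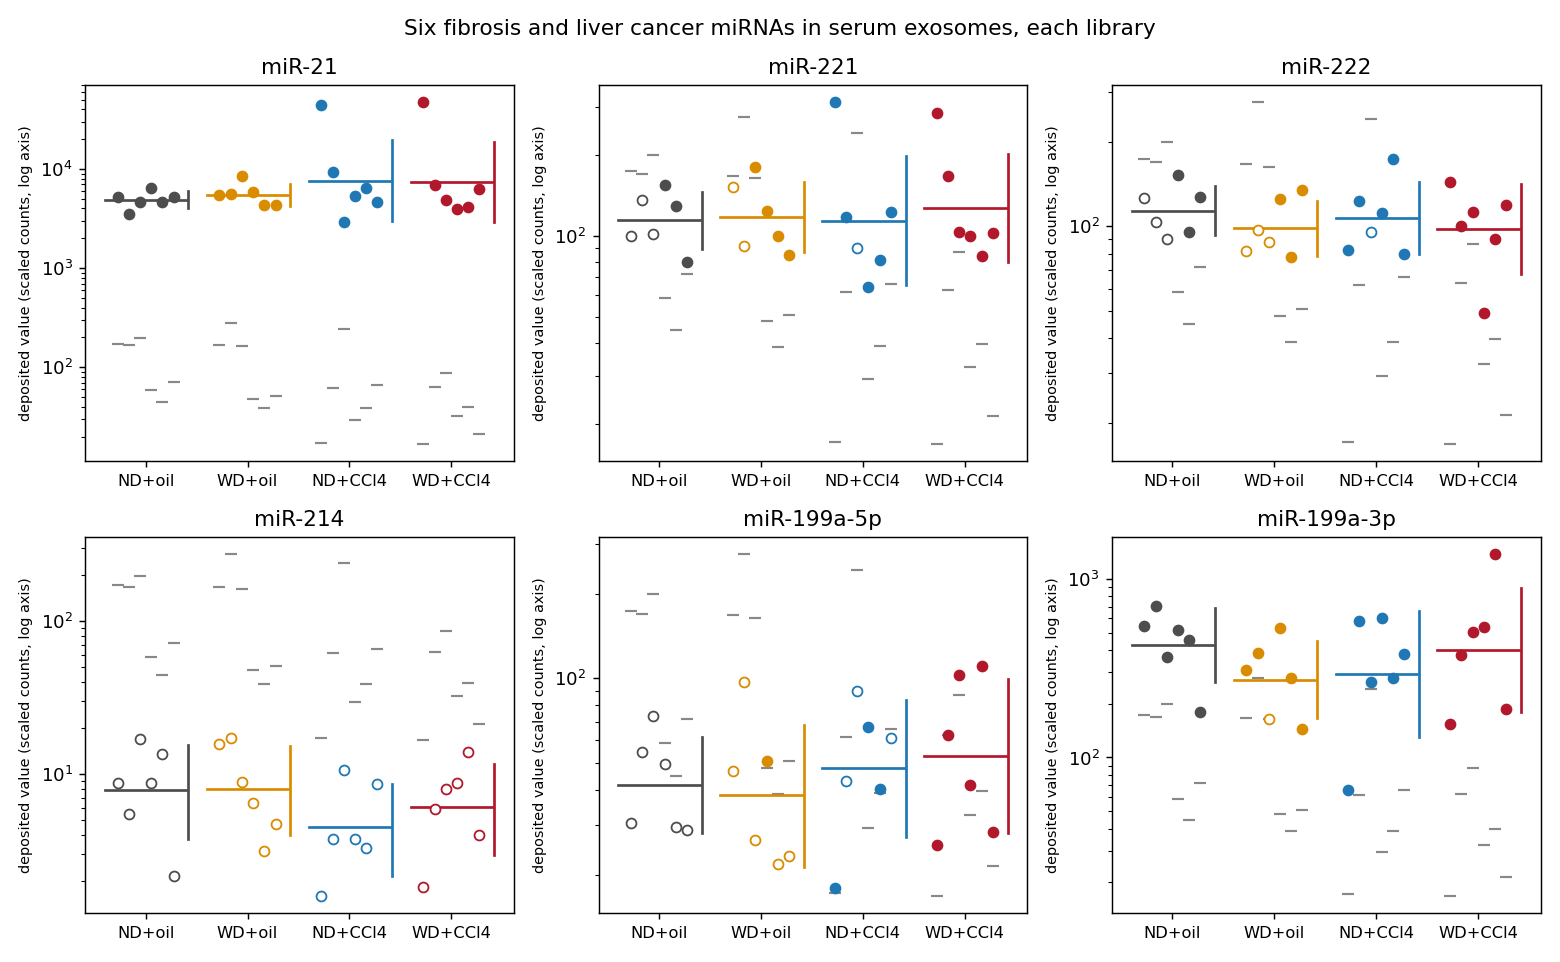
Deposited value (scaled counts, log axis) of the 6 miRNAs in each of 24 libraries by group; filled points are above the negative control limit of their library (grey dash) and open points are not, and each horizontal line is the group mean of log2(value + 1) with a vertical bar of 1 SD. miR-21 lies above the limits throughout with 2 high libraries, and all 24 points of miR-214 are open.

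miR-221 and miR-222, which share a seed and are neighbours on the X chromosome, had group medians of 102 to 115 and of 92.7 to 115, and no difference that passed the test. In ND+oil the value of miR-221 was 80.1 at the lowest, 115 at the median and 155 at the highest, and in WD+oil 84.9, 112 and 181. For ND+CCl4 the same 3 values were 64.7, 104 and 314, and for WD+CCl4 83.9, 102 and 285. The groups overlapped, and the highest values of the CCl4 groups belonged to the same 2 libraries as for miR-21. There miR-221 was 3.36 times the geometric mean of the rest of ND+CCl4 and 2.63 times that of the rest of WD+CCl4.

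miR-222 ran from 90.0 through 115 to 152 in ND+oil and from 78.1 through 92.7 to 134 in WD+oil. It ran from 79.5 through 104 to 174 in ND+CCl4 and from 49.2 through 106 to 144 in WD+CCl4. All 4 ranges overlapped, and of the libraries that stand apart, that of ND+CCl4 lay inside its group (82.6) and that of WD+CCl4 was the highest of its group (144).

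The fold of miR-221 in WD+CCl4 over ND+oil was 1.11 (95% CI 0.676 to 1.83), and that of miR-222 was 0.859 (0.583 to 1.27). In the libraries where all samples were above the limit, replicates 4 to 6, the same folds were 0.812 (0.491 to 1.34) for miR-221 and 0.663 (0.371 to 1.19) for miR-222, with 3 libraries a group. Neither passed the test in either fit. In the shallow libraries that missed them, the values of both miRNAs lay under the negative control limit, so the folds over all libraries include values that cannot be told from background.

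miR-214, reported in fibrotic liver, was read at 1 to 17 counts per library, 127 counts over all 24, and never exceeded even the mean of the negative controls, since its highest ratio to that mean was 0.814. Its highest count was 10 and 6 in the 2 oil groups (ND+oil, WD+oil), and 9 and 17 in the 2 CCl4 groups (ND+CCl4, WD+CCl4). It was above background in 0 of 24 libraries at the limit above, at a limit of 3 SD over the mean or at the highest negative control. It was therefore left out of the main test between groups, and at this depth a difference in miR-214 was not detectable. Only the fit with no filter, in the closing section, included it, and it did not pass there.

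The 2 arms of miR-199a come from the same hairpins but were read at different margins over background. miR-199a-3p was 179, 486 and 703 (lowest, median, highest) in ND+oil and 145, 292 and 534 in WD+oil. It was 65.5, 328 and 606 in ND+CCl4 and 155, 441 and 1382 in WD+CCl4. Of the 6 WD+oil libraries 5 lay below the ND+oil mean, yet all groups overlapped, and the lowest values of ND+CCl4 and of WD+CCl4 were the libraries that stand apart.

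On the deposited scaling, miR-199a-3p in those 2 libraries was 0.167 and 0.322 times the geometric mean of the other 5, the opposite side from miR-21. Its counts there, 165 and 339, lay within the count ranges of their groups (50 to 1293 and 191 to 1696). The totals of these libraries were 1496818 and 1328912, so the low values are relative to the deposited scaling. Sums of markers of other sources, on the same scaling, were low there too. Stromal and smooth muscle miRNAs (2 kept) summed to 123 and 116 against 257 to 1209 in the other 22 libraries. Endothelial ones (2 kept) summed to 471 and 865 against 1028 to 6800, and myeloid ones (3 kept) to 2323 and 2231 against 8334 to 29795. Their part in the miR-199a-3p values was not tested. Against ND+oil, miR-199a-3p was 0.642-fold in WD+oil (95% CI 0.303 to 1.36), 0.692-fold in ND+CCl4 (0.327 to 1.47) and 0.939-fold in WD+CCl4 (0.443 to 1.99). Without the 2 libraries these became 0.642, 0.932 and 1.13. Within replicates 1 to 3 the ND+CCl4 difference was -1.26 on the log2 scale, and within replicates 4 to 6 it was 0.20.

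miR-199a-5p was 28.8, 40.0 and 73.2 in ND+oil, and its WD+oil values were 21.9, 36.6 and 97.2. For ND+CCl4 they were 17.9, 52.2 and 90.3, and for WD+CCl4 25.6, 52.3 and 111. The medians of the CCl4 groups were the higher ones and the ranges overlapped. Several detected libraries were barely so: WD+CCl4 replicate 2 had 32 counts over a limit of 31.9, ND+CCl4 replicate 1 had 45 over 43.2, and ND+CCl4 replicate 5 had 74 over 71.2. The fold in WD+CCl4 over ND+oil was 1.27 (95% CI 0.663 to 2.42, adjusted p = 0.619 by limma). Subtracting the mean negative control from each library changed that call. The log2 difference became 2.93 (SE 0.91, limma adjusted p = 0.0375). Counts were at or under that mean in 3 ND+oil, 3 WD+oil, 1 ND+CCl4 and 0 WD+CCl4 libraries, which the subtraction sets to a floor of 1. The filter asks for 6 libraries above the limit and kept miR-199a-5p only through WD+CCl4 (6 of 6 libraries). In ND+oil, WD+oil and ND+CCl4 it was above the limit in 0, 1 and 3. A call of it as higher in WD+CCl4 is therefore not independent of the filter.

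No member passed the test in any comparison. The test was limma on log2(value + 1) over the 158 miRNAs above the limit in at least 6 libraries, which kept 5 of the 6 members, with Benjamini-Hochberg adjusted p under 0.05 as the threshold. In WD+oil against ND+oil 0 of 5 passed, beside 10.8% of all miRNAs tested (17 of 158), with adjusted p of 0.439 to 0.959. In ND+CCl4 against ND+oil 0 of 5 passed, beside 1.27% (2 of 158), with adjusted p of 0.492 to 0.993. In WD+CCl4 against ND+oil 0 of 5 passed, beside 15.8% (25 of 158), with adjusted p of 0.463 to 0.881. These 3 comparisons share the ND+oil samples. The counts over all 158 rest partly on single libraries. They ran from 6 (without WD+oil replicate 3) to 34 (without ND+CCl4 replicate 1) in the first comparison, from 1 (without ND+CCl4 replicate 1) to 10 (without ND+CCl4 replicate 3) in the second, and from 7 (without ND+oil replicate 6) to 43 (without ND+CCl4 replicate 1) in the third.

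Within the CCl4 or diet arms the members gave no call either. WD+CCl4 against WD+oil gave 0 of 5, beside 0% of the 158, with adjusted p of 0.915 to 0.991. WD+CCl4 against ND+CCl4 gave 0 of 5, beside 0.633%, with adjusted p of 0.897 to 0.989. The interaction of diet and CCl4 gave 0 of 5, beside 0%, with adjusted p of 0.926 to 0.940, and the test of any difference among the 4 groups gave 0 of 5, beside 10.8%, with adjusted p of 0.729 to 0.966. At an unadjusted p under 0.05 the count was also 0 of 5 in each of the 7 tests, and the lowest unadjusted p, 0.159, was that of miR-199a-3p in the interaction. No member had groups that did not overlap in any of the 5 pairwise comparisons, beside 15.8%, 2.53%, 10.1%, 1.27% and 1.27% of the 158 in the order above.

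A test that misses the threshold does not show equal levels, and the intervals say how large a difference these samples leave room for. With the deposited scaling, for WD+CCl4 against ND+oil, the upper bound of the fold was 3.26 for miR-21, 2.42 for miR-199a-5p, 1.99 for miR-199a-3p, 1.83 for miR-221 and 1.27 for miR-222. The lower bound was 0.443 for miR-199a-3p and 0.583 for miR-222. Without the 2 libraries that stand apart, the interval of miR-21 narrowed to 0.715 to 1.51. The bounds move with the processing: with spike-in scaling the upper bound was 16.6 for miR-21, 9.48 for miR-199a-5p, 9.38 for miR-221, 7.70 for miR-199a-3p and 7.03 for miR-222. With the mean negative control subtracted, the fold of miR-199a-5p, which the filter kept only through WD+CCl4, was 7.60 (2.08 to 27.8). The upper bound was then 6.98 for miR-221 and 5.69 for miR-222.

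The differences are relative to the authors' scaling. Under it the median log2 difference of the 158 miRNAs from ND+oil was -0.14 for WD+oil, -0.16 for ND+CCl4 and -0.17 for WD+CCl4. Scaling to the 3 spike-in probes moved these medians to -0.03, 1.22 and 1.25. Relative to the median, miR-21 in WD+CCl4 lay 0.77 above it with the deposited scaling and 0.79 above it with spike-in scaling, miR-199a-5p 0.51 and 0.49 above, miR-221 0.32 and 0.33 above, miR-199a-3p 0.08 and 0.10 above, and miR-222 0.05 and 0.04 below (-0.05 and -0.04). With spike-in scaling miR-21 itself was 2.04 higher in WD+CCl4 than in ND+oil (SE 0.99, limma adjusted p = 0.154). No member passed with that scaling, while miR-21 and miR-199a-5p had unadjusted limma p of 0.0473 and 0.0247.

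**Figure D3:**
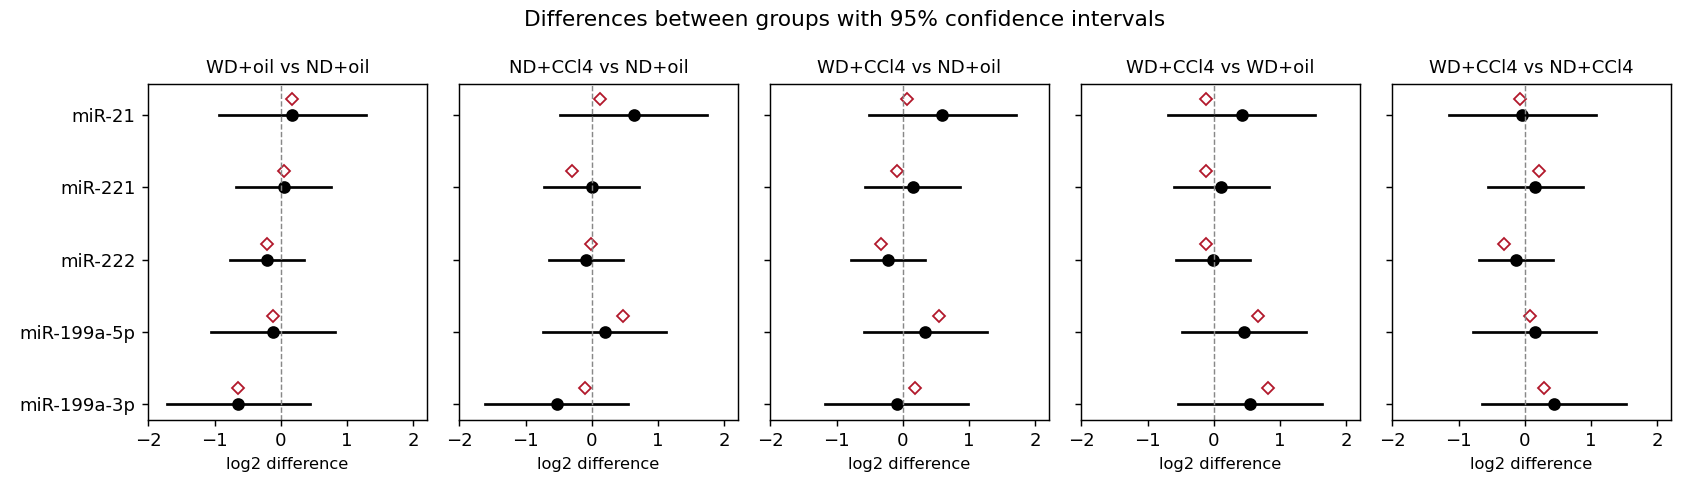
Log2 difference of the 5 tested miRNAs in 5 pairwise comparisons, with black points for all 24 libraries, bars for 95% confidence intervals, and red diamonds for the difference without the 2 libraries that stand apart. All intervals cover 0, and leaving out the 2 libraries moves miR-21 in ND+CCl4 against ND+oil from 0.63 to 0.13.

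The deposited values of the members differed in spread between samples of a group. miR-222 had a within-group SD of 0.40 on the log2 scale, the 10th smallest of 158, against a median SD of 0.80 over all kept miRNAs. miR-221 had an SD of 0.58 (38th), miR-199a-5p 0.77 (77th), miR-199a-3p 0.96 (105th) and miR-21 0.99 (112th). miR-222 and miR-221 were under the negative control limit in 7 and 6 libraries, so their SDs include background values and do not show steady miRNAs. With the mean negative control subtracted, the SE of WD+CCl4 against ND+oil went from 0.27 to 0.97 for miR-222. For miR-221 it went from 0.35 to 0.98. That subtraction sets 2 libraries of each to a floor of 1. Without the 2 libraries miR-21 moved to 0.41 (29th), miR-221 to 0.38 (18th) and miR-222 to 0.38 (19th), while miR-199a-3p was 0.76 (121st) against a median of 0.59. Over those 22 libraries miR-21 ran from 2900 to 9332, a 3.22-fold range, and miR-199a-3p from 145 to 1382, a 9.55-fold range.

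The miRNAs whose values were most like each member across samples were found by Pearson correlation of log2 values over 24 libraries, given with r over the 22 libraries that do not stand apart and with no p. For miR-21 they were miR-30e (r = 0.908, and 0.569 over 22), miR-152 (0.899 and 0.542) and miR-301b (0.877 and 0.545). For miR-221 they were miR-21 (0.788 and 0.378), miR-365 (0.779 and 0.5) and miR-301b (0.768 and 0.417). These correlations were much lower over 22 libraries than over 24, but the miRNAs were chosen over all 24, which include the 2 libraries that stand apart. Chosen over the 22, the nearest to miR-21 were miR-30d (r = 0.76 over 22), miR-30a (0.64) and miR-30e (0.569). The nearest to miR-221 were then miR-714 (0.672), miR-532-5p (0.609) and miR-24 (0.585).

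For miR-199a-3p the nearest were miR-126-3p, an endothelial and platelet miRNA (r = 0.826, and 0.728 over 22), miR-145, a smooth muscle miRNA (0.792 and 0.685), and miR-139-5p (0.684 and 0.449). For miR-199a-5p they were its own partner arm miR-199a-3p (0.676 and 0.576), miR-204 (0.614 and 0.499) and miR-143 (0.586 and 0.529). For miR-222 they were miR-25 (0.522 and 0.489), miR-16 (0.436 and 0.483) and miR-106b (0.432 and 0.471). These were the lowest values of the 5 members over 24 libraries but, for the miRNAs chosen over 24, not over 22. All values share the authors' scaling, and values near the negative control limit share the depth of the library.

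Among the 10 pairs of the 5 members, over 22 libraries, the arms of miR-199a had the highest correlation. Pearson's r was 0.576 (permutation p = 0.00486, adjusted over 10 pairs p = 0.0486) and Spearman's rho 0.506 (permutation p = 0.0175, adjusted p = 0.175). Without the 2 libraries farthest from the median of miR-199a-5p, r was 0.465. It was 0.168 within replicates 1 to 3 (n = 10), where the 5p arm was mostly under the limit, and 0.851 within replicates 4 to 6 (n = 12). miR-221 and miR-222 gave r = -0.157 (permutation p = 0.488, adjusted p = 0.666) and rho = -0.199 (permutation p = 0.373, adjusted p = 0.887). Their r was -0.105 without 2 libraries, -0.366 within replicates 1 to 3 and -0.066 within replicates 4 to 6. Within replicates 1 to 3 both were mostly under the limit, so r there and over 22 libraries includes values that cannot be told from background. No other pair passed the adjusted threshold by Pearson's r, and none by Spearman's rho. The permutations treat the 22 libraries as exchangeable, although residuals of samples with the same number correlated between groups. The p of the miR-199a arms, which lies at the threshold for r, may therefore be too small.

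**Figure D4:**
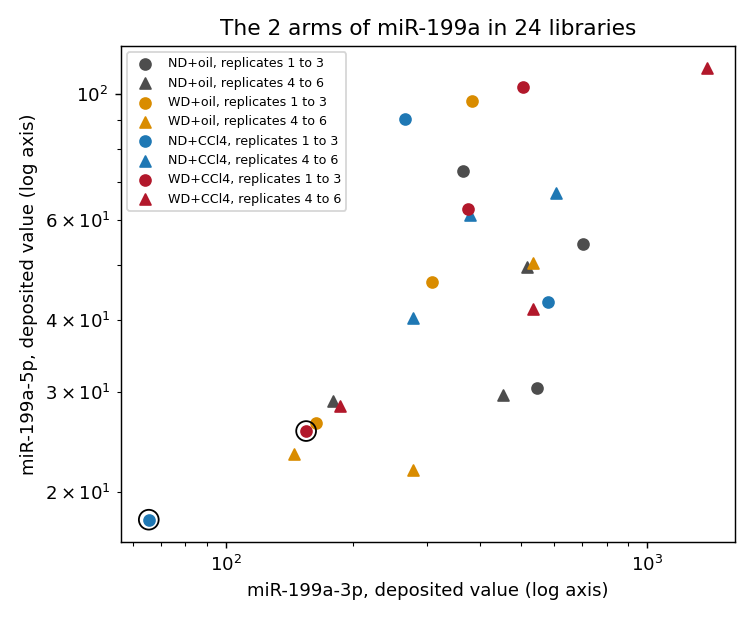
Deposited value of miR-199a-5p against that of miR-199a-3p (both log axes) in 24 libraries, coloured by group, with circles for replicates 1 to 3, triangles for replicates 4 to 6 and rings round the 2 libraries that stand apart. The ringed libraries lie toward the low end of both axes, and the highest point, WD+CCl4 replicate 5, is at 1382 and 111.

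Other miRNAs reported in these conditions were read in WD+CCl4 against ND+oil, where 15.8% of all 158 passed, 5.7% (9) as higher and 10.1% (16) as lower. Of 7 further miRNAs on the panel reported higher in liver fibrosis, 4 were kept (miR-181a, miR-27a, miR-27b and miR-125b-5p), and 1 passed: miR-181a, which fell by 1.78 on the log2 scale (SE 0.59, limma adjusted p = 0.0427). This call was lost in 11 of 24 fits that left out 1 library, with the highest adjusted p, 0.112, without WD+CCl4 replicate 1. miR-34a and miR-155 were not kept. The median log2 difference of the 4 was 0.45, against -0.17 over all 158.

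Of 15 miRNAs reported higher in liver cancer, 8 were kept, of which 0 passed as higher and 2 as lower. miR-151-5p was 0.357-fold (limma adjusted p = 0.00830) and the probe shared by miR-20a and miR-20b, members of the growth-promoting miR-17 family, 0.564-fold (limma adjusted p = 0.0468). The call of the shared probe was lost in 16 of 24 fits that left out 1 library (limma adjusted p = 0.0979 without WD+CCl4 replicate 1), and that of miR-151-5p in 0. Both were also lower in WD+oil than in ND+oil, at 0.421-fold and 0.510-fold (limma adjusted p = 0.0241 and 0.0257), with 5.7% of the 158 called lower there, and without WD+oil replicate 3 both calls were lost (limma adjusted p = 0.0801 and 0.0933). The list median in WD+CCl4 was -0.54, against -0.17 over all 158. Platelet-abundant miRNAs had a median of -1.02 (5 of 5 with lower values, 1 called) and myeloid ones of -1.12 (3 of 3, 1 called). The platelet and myeloid lists share miR-223, and 93 of all 158 had lower values. The part of platelet and myeloid miRNAs in the liver cancer list was not tested.

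Of 9 miRNAs reported to restrain fibrosis, all kept, 2 passed as higher and 1 as lower. Within the miR-29 family, which acts on collagen messages, miR-29c rose by 1.59 on the log2 scale (limma adjusted p = 0.0415) and miR-29b fell by 1.82 (limma adjusted p = 0.00830), so members of 1 family passed in opposite directions. The call of miR-29c was lost in 9 of 24 fits that left out 1 library (limma adjusted p = 0.0948 without WD+CCl4 replicate 1), and that of miR-29b in 0. The other was miR-122, at 39.2-fold (limma adjusted p = 0.000273), which is also a hepatocyte-enriched miRNA. All 5 kept miRNAs of the hepatocyte-enriched list had higher values, 3 of them called, with a median of 2.07. Over all 158, 65 had higher and 93 lower values. Of 13 miRNAs reported lower in liver cancer, 10 were kept. Among them miR-122 was the only one called higher and miR-99a, at 0.250-fold (limma adjusted p = 0.00830), the only one called lower. Of the 10, 2 had higher and 8 lower values, with a median of -0.51, against -0.17 over all 158.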

How the data were processed

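The authors deposited 1 table of 626 features by 24 samples of the NanoString nCounter Mouse v1 miRNA panel, in the unit signal. As found from the values, rows other than the controls are digital counts multiplied by 1 factor per library, with values under 1 raised to 1. The negative control rows were taken as unscaled counts, and counts recovered by dividing out the factor were compared with them directly. Per the labels' protocols, exosomal RNA was extracted from serum with a miRNeasy micro kit; the sources used here do not give the exosome isolation, the scaling software or the number of animals in a sample. When the factor was divided out of the rows other than the negative and positive controls, 14571 of 14571 values over 1 were whole counts to within 0.05. The 117 values listed as 1 in 9 libraries were taken as 1 count.

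A miRNA was kept if its count was over the limit of the 8 negative controls (mean plus 2 SD) in at least 6 of 24 libraries (158 of 566). limma 3.58.1 (R 4.3.3; lmFit, eBayes with trend) was run on log2(value + 1) with 4 group means over all 24 samples, two-sided, with Benjamini-Hochberg adjustment over the 158 miRNAs. It was tested on simulated data. Named besides the members were, for each, the 3 most correlated miRNAs, list members with the smallest p among those past the threshold, and 6 context miRNAs where needed. The members and lists were chosen with earlier results of these data known. Residuals of samples with the same number correlated above 0.1 in 6 of 6 pairs between the oil groups (0.32 to 0.75). They did so in 6 of 6 between the CCl4 groups (0.28 to 0.84) and in 3 to 5 of 6 between the other groups. The best match had the same number in 4 of 6 in each of the first 2 and in 0 to 3 of 6 in the others. The part of the sets of replicates, and of the 2 libraries that stand apart, in these correlations was not tested. Alternatives are given in the closing section.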

Additional observations from a re-analysis of the deposited data

Results flagged for a closer look

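In 24 sets of 6 samples (each member in each group), 5 had an end value whose gap to the next, divided by the range, was above 0.625. All 5 were the highest value of their set. Chance gives about 1 in 20 for normally distributed values. These sets hold unlogged scaled values and share libraries, so that rate is not a reference for the 5. miR-21 was flagged at 43776 in ND+CCl4 replicate 1 and at 47389 in WD+CCl4 replicate 1, where the other 5 libraries reached 9332 and 6829. miR-221 was flagged at 314 in ND+CCl4 replicate 1, with 123 as the next value. miR-21 was flagged at 8541 in WD+oil replicate 3, with 5867 next. That library had the lowest haemolysis index of its group (log2 miR-451 minus log2 miR-23a), 1.80 against 2.78 to 3.55, and its part in the value was not tested. miR-199a-3p was flagged at 1382 in WD+CCl4 replicate 5, with 536 next, and miR-199a-5p had its highest WD+CCl4 value, 111, in the same library.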

How the results depend on the processing

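No member passed in any of the 7 tests under the pseudocounts of 0.5 and 10, no filter, the stricter filter (which tested miR-21 alone), median centring, the replicate block, the set of replicates as a term, each set alone, the haemolysis covariate, spike-in scaling, scaling to library totals or any of 24 fits that left out 1 library (lowest adjusted p 0.272), nor in the 5 pairwise comparisons fitted on only the groups compared; the replicate block changed none of the 7 counts of 0. Spike-in scaling, scaling to library totals and background subtraction with sets as a term were chosen after seeing the data. Background subtraction changed counts from 0 to 1, each time miR-199a-5p, which the filter kept only through its WD+CCl4 libraries. In WD+CCl4 against ND+oil it gave 2.93 (adjusted p = 0.0375), and with sets as a term 2.93 (adjusted p = 0.00867), 3.15 against WD+oil (adjusted p = 0.0197), and 1 of 5 in the test of any difference (all by limma). Libraries above the limit for miR-199a-5p fell from 10 to 5 at the mean plus 3 SD. The count-based tests listed as alternatives were not run, since the values are deposited as scaled signal with low values raised to 1. miR-214 could not be told from background at any depth (4 counts in each of the 2 deepest libraries), nor miR-221 and miR-222 in most libraries with a total of 75896 or less.

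Of 25 log2 differences, 7 kept their sign in all alternatives and 18 changed it in at least 1. None of these 18 was called, and the cause of the changes was not tested. In replicates 4 to 6 alone the opposite signs were -0.17, -0.20 and -0.024 for miR-21 (WD+oil against ND+oil, WD+CCl4 against ND+oil and against WD+oil), -0.20, -0.30 and -0.10 for miR-221 in the same comparisons, -0.11 for miR-199a-5p (WD+CCl4 against ND+CCl4), and 0.20 and 0.57 for miR-199a-3p (each CCl4 group against ND+oil, ND+CCl4 before WD+CCl4). In replicates 1 to 3 alone they were 0.13 for miR-21 (WD+CCl4 against ND+CCl4), 0.42 for miR-221 and -0.26 for miR-199a-5p (ND+CCl4 against ND+oil), and 0.15, 0.40 and 0.24 for miR-222 (WD+CCl4 against ND+oil, WD+oil and ND+CCl4). With the haemolysis covariate they were -0.049 for miR-21 and -0.13 for miR-221 (WD+oil against ND+oil), 0.14 and -0.10 for miR-221 (ND+CCl4 against ND+oil, WD+CCl4 against ND+CCl4) and 0.016 for miR-199a-3p (WD+CCl4 against ND+oil).

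Without the 2 libraries that stand apart they were -0.11 for miR-21 and -0.12 for miR-221 (WD+CCl4 against WD+oil), and -0.08 for miR-221 and 0.18 for miR-199a-3p (WD+CCl4 against ND+oil). With spike-in scaling they were 0.003 for miR-21 (WD+CCl4 against ND+CCl4), 1.39 for miR-221, 1.30 for miR-222 and 0.87 for miR-199a-3p (ND+CCl4 against ND+oil), 1.21 for miR-222 and 1.35 for miR-199a-3p (WD+CCl4 against ND+oil), and 1.30 for miR-222 (WD+CCl4 against WD+oil). With scaling to library totals they were 0.24 for miR-21 and 0.14 for miR-222 (WD+CCl4 against ND+CCl4), -0.066, -0.11 and -0.044 for miR-221 (WD+oil against ND+oil, WD+CCl4 against ND+oil and WD+oil), and -0.34 for miR-199a-5p (ND+CCl4 against ND+oil). With background subtraction, with or without sets, they were -0.36 for miR-221 (WD+oil against ND+oil), 0.51, 1.40 and 0.69 for miR-222 (WD+CCl4 against ND+oil, WD+oil and ND+CCl4) and 0.007 for miR-199a-3p (WD+CCl4 against ND+oil). Median centring gave 0.18 for miR-221 and 0.10 for miR-222 (ND+CCl4 against ND+oil), 0.023 for miR-199a-5p (WD+oil against ND+oil) and 0.054 for miR-199a-3p (WD+CCl4 against ND+oil), and a pseudocount of 10 gave 0.004 for miR-221 (ND+CCl4 against ND+oil).

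Leaving out 1 library, sign changes came within these ranges. In WD+CCl4 against ND+CCl4 they were -0.57 to 0.47 for miR-21, -0.075 to 0.45 for miR-221, -0.24 to 0.063 for miR-222 and -0.12 to 0.35 for miR-199a-5p. In WD+CCl4 against WD+oil they were -0.11 to 0.60 for miR-21, -0.12 to 0.23 for miR-221 and -0.12 to 0.18 for miR-222. In WD+CCl4 against ND+oil they were -0.08 to 0.27 for miR-221 and -0.45 to 0.18 for miR-199a-3p. In ND+CCl4 against ND+oil they were -0.30 to 0.16 for miR-221, and in WD+oil against ND+oil -0.081 to 0.14 for miR-221 and -0.38 to 0.044 for miR-199a-5p.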
